A study of Mus musculus with 16 samples.

Results

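Stag3 and the subunit genes of the cohesin ring were followed across lung tumors labelled Max null and Max wild-type. The members are 8 genes, taken by symbol from the 23284 symbols counted in every tumor: Stag3, Smc1b and Rec8, which belong to meiotic cohesin, and Stag1, Stag2, Smc1a, Smc3 and Rad21, which make up mitotic cohesin. The list was chosen by a measured value, the CPM of Stag3, which was already known to differ between the groups in these same counts, so for all 8 members the difference between the groups is given as a description and not as a test. Of the 8, 7 passed the filter on low counts and Rec8 did not.

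Cohesin is a ring that holds sister chromatids together after replication and folds chromosomes into loops. In dividing body cells the ring consists of SMC1A and SMC3, closed by the kleisin RAD21 and bound by STAG1 or STAG2. Germ cells in meiosis also use SMC1B, the kleisins REC8 and RAD21L, and STAG3, which binds the meiotic kleisins and is required for the chromosome axis. In most body cells the genes of the meiotic subunits are silent, and some of their promoters, that of Stag3 among them, can be bound by a Polycomb complex, PRC1.6, which contains MGA with its partner MAX and E2F6.

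RNA was sequenced from 9 tumors of the RPMax-/- genotype and 7 RPMaxWT tumors, all of a mixed 129/SvJ and C57BL/6 background. In both groups genes had been deleted by an adenovirus that carried Cre recombinase under the CMV promoter, given into the trachea. RP commonly stands for conditional Rb1 and Trp53 alleles, a mouse model of small cell lung cancer, although the labels do not spell it out. The virus acts on any cell it enters, and the labels give neither the age of the mice nor whether the tumors came from separate animals.

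Values are counts per M (megareads) of reads in genes (CPM) on scaled library sizes, and reads in genes were 8.66 to 15.1 M per tumor. Max transcripts were not lower in tumors labelled null (74.4 ± 5.98 CPM, SD, n = 9) than in wild-type tumors (65.8 ± 7.97 CPM, n = 7; edgeR adjusted p = 0.281), and since the counts cover the whole gene, groups are used here as labelled. All 11 neuroendocrine markers were detected, with summed levels of 4166 to 7876 CPM in null tumors and 4187 to 28213 CPM in wild-type tumors. Reads aligned to several places made up 9.17% to 11.8% of reads in null libraries and 12.3% to 22.2% in wild-type libraries, without overlap, and were highest in wild-type tumors 2, 4 and 7. Among markers of other cells, 3 of 8 macrophage genes (Cd68, C1qa and C1qb) and 1 of 6 tested T cell genes (Lck) were lower in null tumors. Of 8 alveolar type 2 genes, 1 (Abca3) was higher. None of 8 endothelial and 8 fibroblast genes passed with edgeR (2 and 1 at an unadjusted p under 0.05). DESeq2 called 0 and 2 of these, and voom 0 and 1. Over all tested genes 16% were called by edgeR, 7.40% higher and 8.64% lower. Other genes of these lists had log2 differences of the opposite sign and were not called. They were Csf1r (0.35) and Cd14 (0.43) for macrophages, Cd2 (1.03) for T cells, and Sftpc (-0.09) and Sftpa1 (-0.07) for alveolar type 2 cells. The list medians were -0.43, -0.19 and 0.34. The macrophage genes summed to 137 to 254 CPM in null tumors, against 196 to 442 CPM in wild-type tumors, and the T cell genes to 7.46 to 21.4 CPM, against 11.6 to 32.6 CPM. The part of these properties in the results below was not tested, except where values without wild-type tumors 2, 4 and 7 are given. In bulk tissue, fewer cells of a type and less RNA per cell cannot be told apart.

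Promoter sequences are shown for Stag3 and the other meiotic subunit genes, because these are the genes whose behavior is compared below. Each window runs from 250 bases before to 50 bases after the transcription start in RefSeq (GRCm38.p6), 5′ to 3′ on the gene's own strand, and the table held 6 of the 8 members. Capitals mark matches to the E-box CACGTG, the palindrome that MAX dimers bind, and to TTCCCGC, a core of E2F sites, searched on both strands.
Stag3: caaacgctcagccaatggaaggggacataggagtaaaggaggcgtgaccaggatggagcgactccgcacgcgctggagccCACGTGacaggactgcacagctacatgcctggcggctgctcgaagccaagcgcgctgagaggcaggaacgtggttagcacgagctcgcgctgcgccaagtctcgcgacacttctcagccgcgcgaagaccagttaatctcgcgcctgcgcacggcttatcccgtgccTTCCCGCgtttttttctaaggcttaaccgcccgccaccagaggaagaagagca
Smc1b: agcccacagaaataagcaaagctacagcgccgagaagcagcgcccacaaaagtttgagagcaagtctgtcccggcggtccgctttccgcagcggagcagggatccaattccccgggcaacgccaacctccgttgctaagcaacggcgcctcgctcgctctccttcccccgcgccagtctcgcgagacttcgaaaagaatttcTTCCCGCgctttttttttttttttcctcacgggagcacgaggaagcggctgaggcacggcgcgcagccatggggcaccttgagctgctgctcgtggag
Rec8: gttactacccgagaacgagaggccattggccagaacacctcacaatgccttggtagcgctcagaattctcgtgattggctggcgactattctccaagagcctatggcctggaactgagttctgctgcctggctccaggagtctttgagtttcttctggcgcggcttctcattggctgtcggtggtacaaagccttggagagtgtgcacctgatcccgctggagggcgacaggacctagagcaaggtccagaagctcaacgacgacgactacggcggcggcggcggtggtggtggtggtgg
Rad21l: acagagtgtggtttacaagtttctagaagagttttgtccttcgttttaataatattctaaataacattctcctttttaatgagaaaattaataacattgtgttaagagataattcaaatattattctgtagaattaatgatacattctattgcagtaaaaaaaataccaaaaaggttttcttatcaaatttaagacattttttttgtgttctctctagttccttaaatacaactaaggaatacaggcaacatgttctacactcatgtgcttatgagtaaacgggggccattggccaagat
The windows lie at chr5:138280259-138280558 (plus strand) for Stag3, chr15:85131908-85132207 (minus strand) for Smc1b, chr14:55617916-55618215 (plus strand) for Rec8 and chr2:151668484-151668783 (minus strand) for Rad21l. The Stag3 window holds an E-box at its base 81 and the E2F-type core at base 248, and these matches do not overlap. Smc1b has the E2F-type core at base 203 and no E-box, and neither motif is present in the windows of Rec8 and Rad21l. Of 32851 promoters of this length, 7.15% hold the E-box, 4.6% the E2F-type core and 0.457% both. Among the mitotic members, Stag1 (base 235) and Smc1a (base 289) also hold the E2F-type core, and Smc3 holds neither motif.

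Stag3 was high in every null tumor and low in every wild-type tumor. Its level was 148 CPM in the lowest null tumor, 191 CPM at the median and 245 CPM in the highest (1696 to 3465 reads per library). In wild-type tumors 1 to 7 it was 11.9, 0.117, 0.450, 1.07, 0.579, 0.410 and 4.72 CPM, from 156, 1, 5, 10, 7, 5 and 35 reads. The groups did not overlap for Stag3 alone among the members; over all tested genes this held for 1.56%, made up of 0.917% higher and 0.648% lower in null tumors. The mean was 198 ± 37.5 CPM in null tumors (SD, n = 9) and 2.76 ± 4.35 CPM in wild-type tumors (n = 7), a fitted log2 difference of 6.14 ± 0.73 (SE). Wild-type tumor 1 alone held most of the wild-type signal, and without it the log2 difference was 7.45. Among null tumors the values differed by less than a factor of 2 between the lowest and the highest.

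**Figure D1:**
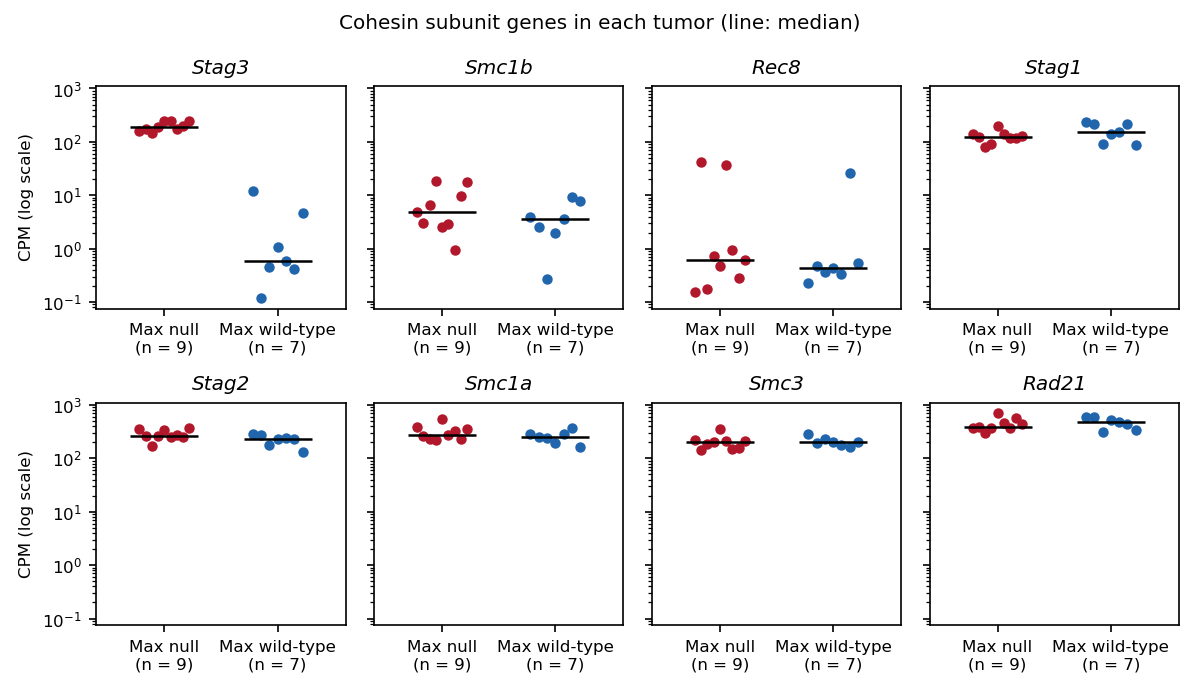
CPM of the 8 cohesin subunit genes in each of 9 Max null and 7 Max wild-type tumors, on a log axis, with the group median as a line. Stag3 lies between 148 and 245 CPM in null tumors and at or below 11.9 CPM in wild-type tumors, Rec8 is above 20 CPM in only 3 tumors, and the mitotic genes overlap between the groups.

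On a scale that allows genes to be compared, reads per kb of exon, Stag3 reached the level of the paralog Stag2. Its mean in null tumors was 34.5 ± 6.54 CPM per kb, beside 34.1 ± 7.46 for Stag2 and 10.7 ± 2.90 for Stag1 (SD, n = 9). In wild-type tumors Stag3 stood at 0.481 ± 0.759 CPM per kb, Stag2 at 27.2 ± 6.42 and Stag1 at 13.8 ± 5.18 (n = 7). Stag3 therefore made up 34.0% to 50.4% of STAG transcripts per length in null tumors (median 43.5%), against 0.0397% to 3.72% in wild-type tumors (median 0.267%). Within null tumors Stag3 and Stag2 did not differ beyond their spread, and both lay above Stag1. Exon lengths joined all annotated exons, from a later build than that of the counts, and the shares depend on them.

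**Figure D2:**
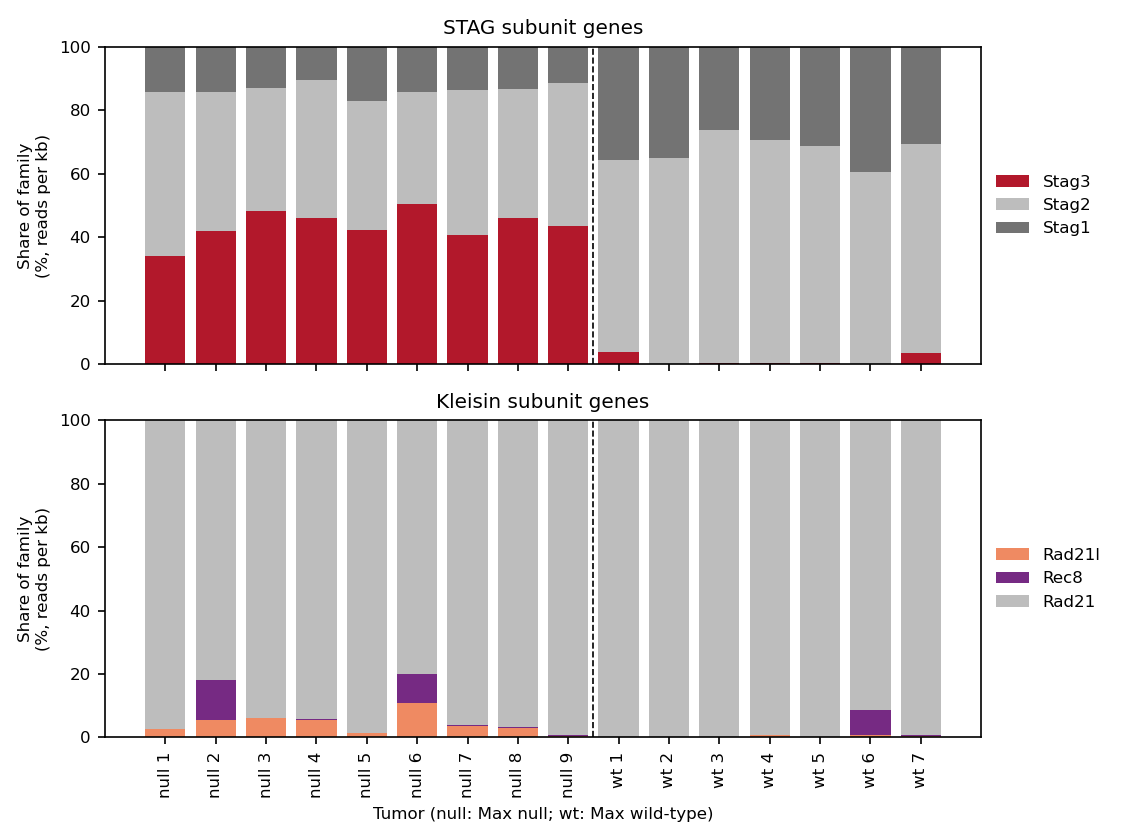
Share of each STAG gene (upper panel) and each kleisin gene (lower panel) in the reads per kb of its family, in percent, for null tumors 1 to 9 and wild-type tumors 1 to 7. Stag3 takes 34.0% to 50.4% of the STAG family in null tumors and at most 3.72% in wild-type tumors, while Rad21 remains the main kleisin in all 16 tumors.

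The mitotic members did not follow Stag3. Stag2, the STAG subunit with the larger role at centromeres, ranged from 173 to 367 CPM in null tumors (median 266) and from 132 to 281 CPM in wild-type tumors (median 234). Stag1, which has a larger role at telomeres, ranged from 81.0 to 200.3 CPM in null tumors (median 122) and from 87.4 to 235 CPM in wild-type tumors (median 154). Both pairs of ranges overlapped, and the log2 differences had opposite signs, 0.33 (95% interval -0.05 to 0.71) for Stag2 and -0.36 (-0.84 to 0.11) for Stag1.

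Of the SMC subunits, which form the arms of the ring, Smc1a measured 222 to 535 CPM in null tumors (median 275) and 161 to 364 CPM in wild-type tumors (median 246). Smc3 measured 145 to 354 CPM in null tumors (median 207) and 164 to 291 CPM in wild-type tumors (median 203). Rad21, the kleisin that separase cuts at anaphase, measured 304 to 719.7 CPM in null tumors (median 394) and 316 to 597 CPM in wild-type tumors (median 481). All 3 overlapped between the groups. Their log2 differences were 0.32 (95% interval -0.12 to 0.75) for Smc1a, -0.02 (-0.40 to 0.37) for Smc3 and -0.08 (-0.49 to 0.33) for Rad21. The intervals of these 5 genes leave room for differences of up to 0.84 on the log2 scale and not for one of the size of Stag3. Null tumor 5 had the highest null value of Rad21, Smc1a, Smc3, Stag1 and Stag3, while null tumor 9 had the highest Stag2.

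Over the members, 1 of 7 tested was called by edgeR at an adjusted p under 0.05, and 16% of all tested genes were called, 7.40% as higher and 8.64% as lower. Nothing is read from that count because the list was built around Stag3. The median log2 difference of the 5 mitotic members was -0.02, beside -0.03 over all 14825 tested genes.

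The meiotic partners in the list behaved differently from Stag3 and from each other. Smc1b, the meiotic counterpart of Smc1a, was low in both groups: 0.938 CPM in the lowest null tumor, 4.77 at the median and 18.3 in the highest, against 0.270, 3.56 and 9.10 CPM in wild-type tumors. The groups overlapped, and the log2 difference was 0.84 (95% interval -0.48 to 2.16). Null tumors 4, 8 and 9, at 18.3, 9.68 and 17.99 CPM, lay above every wild-type tumor, and wild-type tumor 3, at 0.270 CPM, lay below every null tumor. Per length, Smc1b was 0.403% to 10.5% of the SMC1 pair in null tumors and 0.158% to 6.39% in wild-type tumors.

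Rec8, the kleisin that holds meiotic sister chromatids together until the second division, was high in 3 tumors, of both groups, and near 0 in the others. It measured 42.1 CPM in null tumor 2 and 36.7 CPM in null tumor 6 (429 and 523 reads), and 26.0 CPM in wild-type tumor 6 (317 reads). In the other 7 null tumors it was 0.152 to 0.938 CPM (2 to 13 reads), and in the other 6 wild-type tumors 0.230 to 0.539 CPM (3 or 4 reads). No tumor lay between 0.938 and 26.0 CPM. Because it was near 0 in most tumors, Rec8 did not pass the filter; without the filter its log2 difference was 1.19 (95% interval -1.60 to 3.97). Of its chromosomal neighbors, chosen after these values were seen, Irf9 was at 59.3, 40.4 and 57.8 CPM in null tumors 2 and 6 and wild-type tumor 6, within its range of 24.7 to 131.8 CPM over all tumors. Ipo4 was at 139, 118 and 53.7 CPM in these, within 29.3 to 162 CPM, and rose in null tumors (log2 difference 1.24 ± 0.22, edgeR adjusted p = 0.00373). Rnf31 had its highest values of all 16 tumors in null tumors 6 and 2, at 65.5 and 63.3 CPM, and was at 36.1 CPM in wild-type tumor 6, within 25.4 to 65.5 CPM. Tm9sf1 was at 106, 110.4 and 88.0 CPM in null tumors 2 and 6 and wild-type tumor 6, within 65.8 to 112 CPM. None of the 4 was near 0 in any tumor, as Rec8 was.

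Rad21l, the other meiotic kleisin and a partner of STAG3, is not a member but belongs to the pathway list. It rose in null tumors by 4.02 ± 0.88 on the log2 scale (SE, edgeR adjusted p = 0.00905). It measured 0.846 CPM in the lowest null tumor, 7.01 at the median and 24.3 in the highest, against 0, 0.117 and 1.39 CPM in wild-type tumors, of which 3 had no read of it. Only null tumor 9, with 11 reads, lay within the wild-type range. The call held in all 16 fits that left out 1 tumor. Without wild-type tumors 2, 4 and 7 the log2 difference was 4.52 and the edgeR adjusted p 0.0672, the highest over the alternatives that tested it (lowest 1.12e-05). The stricter filter on low counts removed Rad21l.

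Per length, both meiotic kleisins remained minor beside Rad21. Rad21 averaged 105 ± 29.8 CPM per kb in null tumors (SD, n = 9), against 111 ± 25.9 in wild-type tumors (n = 7). Rad21l averaged 4.87 ± 4.05 in null tumors, against 0.296 ± 0.389 in wild-type tumors. Of all kleisin reads per length, Rad21l made up 0.497% to 10.7% in null tumors and at most 0.736% in wild-type tumors. Rec8 made up 12.6%, 9.15% and 7.75% in the 3 tumors where it was high, and at most 0.352% in the others. Null tumors 2 and 6 held Stag3, Rad21l and Rec8 together, the other null tumors held Stag3 with Rad21l (0.846 to 8.86 CPM) at near-zero Rec8, and wild-type tumor 6 held Rec8 with 1.39 CPM of Rad21l, its highest wild-type level and above that of null tumor 9, and 0.410 CPM of Stag3.

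**Figure D3:**
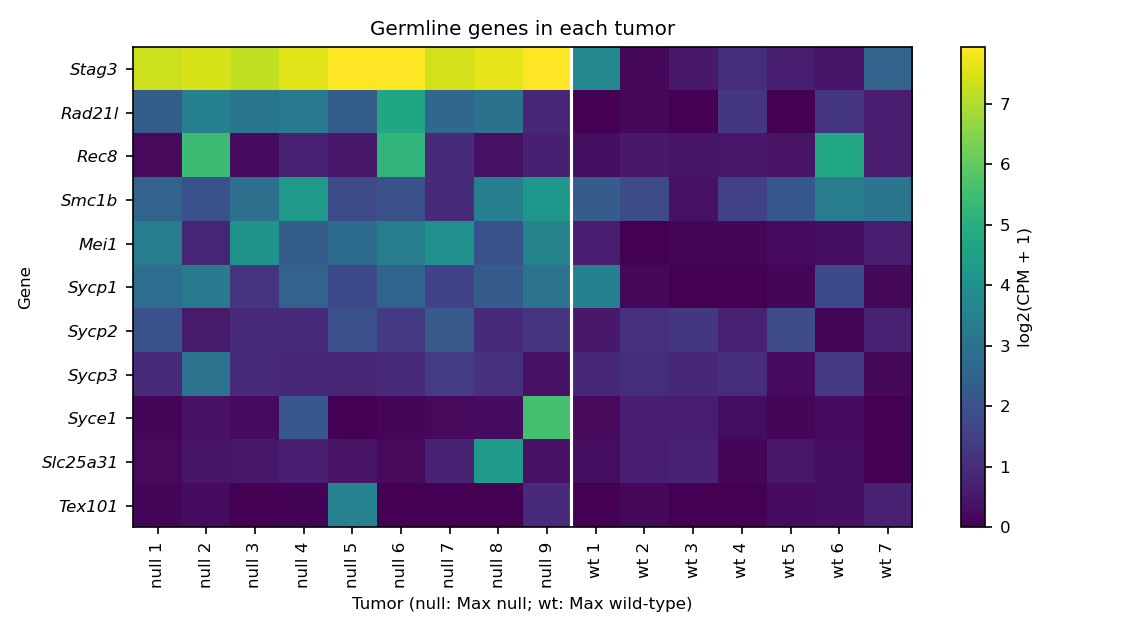
Levels of Stag3, its meiotic partners and a selection of other germline genes, as log2(CPM + 1), with a column for each tumor. The white line lies between 9 Max null (left) and 7 Max wild-type tumors. Mei1 was taken for its likeness to Stag3. Germline genes not shown include Ctcfl, which fell in null tumors, Tuba3a, highest in wild-type tumor 1, and the Hormad genes, low in all tumors. Stag3 is high in all 9 null tumors, Rad21l is above 4 CPM in 8 of them, and Rec8, Sycp3, Syce1, Slc25a31 and Tex101 are high only in single or few tumors.

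Across the 9 null tumors, a variation that was not used to choose the members, Stag3 was set against 6 other members. Stag3 and Rad21 varied together by rank (Spearman's rho 0.90, exact permutation p = 0.00203, adjusted over 6 relations 0.0122), but Pearson's r of log2 CPM was 0.75 (exact permutation p = 0.0162, adjusted 0.0973) and 0.53 without the 2 tumors farthest from the median of Stag3. The relation thus rests in part on those tumors. For Stag1, Smc3, Stag2, Smc1a and Smc1b, r ranged from 0.13 to 0.64 and rho from 0 to 0.58, and none passed (lowest adjusted exact permutation p 0.182 for r and 0.324 for rho). Without those 2 tumors r turned to -0.15 for Smc1a and -0.043 for Stag2. A relation with Rec8 was also planned. It was left out after the values of Rec8 were seen to fall into separate clusters, so the adjustment covers 6 relations.

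Among the mitotic members themselves, all 10 pairs had a positive r in the 9 null tumors, from 0.41 to 0.86, and 1 passed, Smc1a with Stag1 (r = 0.86, exact permutation p = 0.00183, adjusted over 10 pairs 0.0183; rho 0.85, adjusted p = 0.0607). Without the 2 tumors farthest from the median of the first gene of each pair, that r was 0.66, Smc1a with Smc3 turned to -0.0062 and Smc3 with Rad21 to -0.16, and the other 7 stayed positive (0.073 to 0.77). Null tumor 5, highest in 4 of the 5 mitotic genes, had the smallest depth of the null libraries, 8.66 M reads in genes.

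The genes that load, modify, protect and release cohesin mostly did not pass the test between the groups. Over the pathway lists, 49 of 59 counted genes were tested, 2 rose, 3 fell and 44 did not pass, with a median log2 difference of -0.20. Over all tested genes 16% were called, 7.40% higher and 8.64% lower, and the median was -0.03. Pds5a, which controls the residence of cohesin on DNA, rose by 0.93 ± 0.31 (SE, edgeR adjusted p = 0.0467). It ranged from 94.4 to 234 CPM in null tumors (median 151) and from 23.6 to 135 CPM in wild-type tumors (median 73.3). The lowest wild-type values, 53.6, 36.5 and 23.6 CPM, were those of tumors 2, 4 and 7; without these the log2 difference was 0.45 (edgeR adjusted p = 0.259; 0.0190 to 0.259 over the alternatives), and the call was also lost in 12 of the 16 fits without 1 tumor, those that kept it being without null tumor 3 or wild-type tumors 1, 5 or 6.

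The genes that fell were Ctcfl, Pttg1 and Nsmce4a. Ctcfl, a germline paralog of the loop-anchor protein CTCF, fell by 1.94 ± 0.45 on the log2 scale (edgeR adjusted p = 0.0113), with 1.61 to 8.73 CPM in null tumors (median 3.82) and 4.59 to 39.6 CPM in wild-type tumors (median 11.2). Its direction was opposite to that of Stag3 and Rad21l. Pttg1, which encodes the separase inhibitor securin, fell by 1.03 ± 0.31 (adjusted p = 0.0316; 46.0 ± 15.99 CPM in null tumors, SD, n = 9, and 94.0 ± 50.5 CPM in wild-type tumors, n = 7). Nsmce4a, a subunit of the SMC5/6 complex, fell by 0.99 ± 0.26 (adjusted p = 0.0195; 92.8 ± 18.8 CPM in null tumors, SD, n = 9, and 184 ± 85.4 CPM in wild-type tumors, n = 7). All 3 had their highest values in wild-type tumors 2, 4 and 7. Without these tumors the log2 differences were -0.91, -0.30 and -0.41 for Ctcfl, Pttg1 and Nsmce4a, and none was called (edgeR adjusted p = 0.266, 0.595 and 0.364, each the highest over its alternatives, with lowest values of 0.000396, 0.0105 and 0.00293). Pttg1 also lost its call in 7 fits without 1 tumor (null tumors 2, 3, 4 or 7 and wild-type tumors 2, 4 or 7), whereas Ctcfl and Nsmce4a kept theirs in all 16. With voom, Pttg1 (-0.65, adjusted p = 0.126) and Nsmce4a (-0.71, adjusted p = 0.0531) were not called.

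A further 5 lists covered loading, acetylation, centromeric protection, condensin, and the chromosome axis with the synaptonemal complex. In these, 0 of 28 tested genes were called by edgeR, and 4 had an unadjusted p under 0.05, all lower. DESeq2 called 0 and voom 3 (Smc2, Smc4 and Sycp1). Leaving out null tumor 5 brought calls by edgeR for Smc2, Smc4 and the shugoshin genes Sgol1 and Sgol2, all lower, and leaving out wild-type tumor 1 for Sycp1, higher, and 4933412E12Rik, lower. Leaving out wild-type tumor 6 brought a call for the SMC3 deacetylase gene Hdac8, higher. The loader genes Nipbl and Mau2 had log2 differences of -0.19 ± 0.19 and -0.14 ± 0.17 (SE). The acetyltransferase genes Esco1 and Esco2 were at -0.34 ± 0.17 and -0.20 ± 0.40. Ppp2r1a and Ppp2r5c, phosphatase subunits that shield centromeric cohesin, were at -0.22 ± 0.17 and -0.31 ± 0.17. The condensin genes Smc4 and Ncapd2 were at -0.65 ± 0.29 and 0.19 ± 0.31. Of 15 proliferation markers, 0 were called by edgeR, DESeq2 or voom, 2 had an unadjusted p under 0.05, both lower, and the median was -0.25. Over all 14825 tested genes, edgeR called 16%, and 4864 had an unadjusted p under 0.05.

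**Figure D4:**
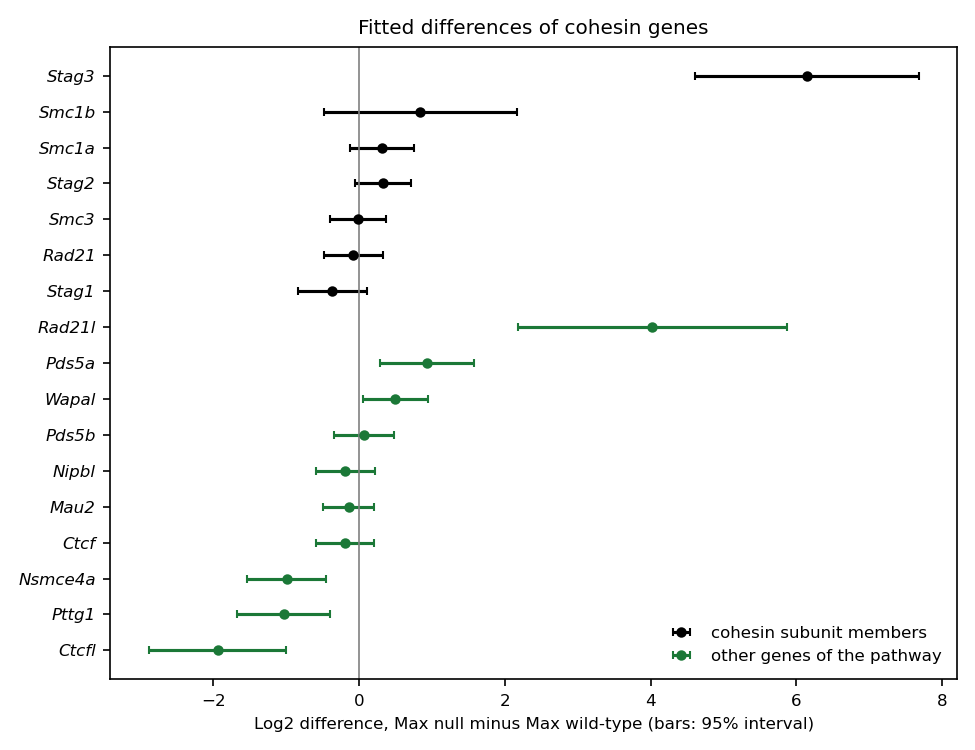
Fitted log2 differences, Max null minus Max wild-type, with 95% intervals, for the 7 tested members (black) and 10 other cohesin pathway genes (green). The green genes are a selection that includes all pathway genes called by edgeR, 2 higher and 3 lower. Of the 49 pathway genes tested, 44 were not called. Stag3 (6.14) and Rad21l (4.02) stand apart on the right, Nsmce4a, Pttg1 and Ctcfl lie left of 0, and the mitotic subunit genes lie between -0.36 and 0.33.

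Genes listed for the meiotic chromosome axis and the synaptonemal complex gave no call as a group. Of 11 counted, 5 were tested and 0 called by edgeR, beside 16% of all tested genes. Syce2, a central element component, had a log2 difference of -0.02 ± 0.29 (SE). The counted symbol 4933412E12Rik, which corresponds to Meikin, a kinetochore factor that protects REC8, was at -0.66 ± 0.36. Sycp1, Sycp2 and Sycp3 leaned higher in null tumors, at 1.26 ± 0.93, 0.77 ± 0.53 and 0.99 ± 0.60. The median of the tested genes was 0.77. The genes named next were chosen after their values were seen. Sycp1, the transverse filament of the synaptonemal complex, was at 1.31 to 8.73 CPM in null tumors (median 4.59) and 0 to 10.3 CPM in wild-type tumors (median 0.117), and wild-type tumor 1, the wild-type tumor with the highest Stag3, also had the highest Sycp1 of all 16. Sycp3, an axis protein, reached 7.07 CPM in null tumor 2 and at most 1.66 CPM elsewhere. Syce1 reached 47.7 CPM in null tumor 9, 3.60 CPM in null tumor 4 and at most 0.585 CPM elsewhere. Hormad1, Hormad2 and Tex12 stayed below 1 CPM in all 16 tumors, and Syce3 had no read in any.

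The 3 other germline genes listed here as bound by E2F6 were low in nearly all tumors. They do not stand for all targets of E2F6. Slc25a31, a germline ADP/ATP carrier, was at 19.7 CPM in null tumor 8 and at most 0.721 CPM in the other 8 null tumors and 0.720 CPM in wild-type tumors. Tuba3a, a testis tubulin, was at most 0.606 CPM in null tumors and 3.37 CPM in wild-type tumor 1. Tuba3b stayed below 0.154 CPM throughout, and none of the 3 passed the filter. E2f6 itself measured 54.8 ± 25.2 CPM in null tumors (SD, n = 9) and 54.5 ± 10.1 CPM in wild-type tumors (n = 7; edgeR log2 difference 0.01 ± 0.22, adjusted p = 0.984). Mga rose by 1.10 ± 0.20 on the log2 scale (edgeR adjusted p = 0.00347), with 268 ± 53.1 CPM in null tumors (SD, n = 9) and 125 ± 36.7 CPM in wild-type tumors (n = 7).

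Most markers of male germ cells were at or near 0. Of 12 listed, Tnp1, Prm2 and Pgk2 had no read in any tumor, and Tnp2, Prm1, Dazl, Ldhc and Acrv1 stayed below 0.540 CPM. Of the list, 3 were tested and 0 called by edgeR, DESeq2 or voom (0 at an unadjusted p under 0.05). Of all tested genes, edgeR called 16%. The germ cell helicase gene Ddx4 measured 0.968 CPM on average in null tumors, against 1.14 CPM in wild-type tumors. Tex101 was at 10.6 CPM in null tumor 5 and at most 0.922 CPM elsewhere. The widely expressed gene Crem gave most of the list's sum, which was 21.4 to 83.6 CPM in null tumors and 15.5 to 53.0 CPM in wild-type tumors.

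The genes whose profile over the 16 tumors was closest to that of Stag3 were Mei1, Col6a5, Dctd, Bfsp1 and Prr19, out of 14703 with a mean of at least 1 CPM. Likeness was the root-mean-square distance of log2 CPM, each gene centered on its own mean, and it was 1.97, 2.15, 2.24, 2.27 and 2.34 for these genes. Mei1 is required for meiotic recombination; it averaged 8.24 ± 5.22 CPM in null tumors (SD, n = 9) and 0.241 ± 0.216 CPM in wild-type tumors (n = 7). Bfsp1, a filament protein of the eye lens, was the most abundant, at 504 ± 92.3 CPM in null tumors, against 59.7 ± 40.0 CPM in wild-type tumors. Dctd, which converts dCMP to dUMP, shared with Stag3 a highest wild-type value in tumor 1 (9.49 CPM). It averaged 15.6 ± 2.72 CPM in null tumors, against 2.91 ± 3.15 CPM in wild-type tumors. Col6a5, a collagen chain, averaged 48.0 ± 35.9 CPM in null tumors, against 3.47 ± 2.73 CPM in wild-type tumors. Prr19, a factor of meiotic crossovers, overlapped between the groups, and the other 4 did not. Over all tested genes the groups did not overlap for 1.56%. These genes were chosen for likeness to Stag3 over the same 16 tumors. Their differences between the groups are therefore built into the choice and are given only as a description.

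The genes beside Stag3 on the chromosome were read for the same contrast. Of 10 counted neighbors, 5 on either side, 9 were tested, 1 fell (Zfp68, a zinc finger gene, by 0.55 ± 0.12 on the log2 scale, edgeR adjusted p = 0.00805) and 8 did not pass, while 16% of all tested genes were called. In the fit that left out wild-type tumors 2, 4 and 7, Zfp68 was at -0.45 and not called (edgeR adjusted p = 0.0790; 3.73e-05 to 0.0898 over the alternatives). Gpc2, a glypican gene next to Stag3 on the opposite strand, had the largest difference of the neighbors, 1.78 ± 0.68. It did not pass (edgeR adjusted p = 0.0786). It measured 16.1 to 49.9 CPM in null tumors (median 21.5) and 0.117 to 28.3 CPM in wild-type tumors (median 3.75). As with Stag3, wild-type tumor 1 had the highest wild-type value, and without it the log2 difference of Gpc2 was 2.72 (edgeR adjusted p = 0.00842; 0.00388 to 0.346 over the alternatives). Exons of Stag3 and Gpc2 share no bases in the GENCODE annotation, and 55.6% of the exon bases of Gpc2 lie in an uncounted model, Gm43720. The remaining tested neighbors, Cnpy4, Mblac1, 0910001L09Rik, 6330418K02Rik, Gal3st4, Zfp157 and A430033K04Rik, had log2 differences from -0.54 to 0.49.

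**Figure D5:**
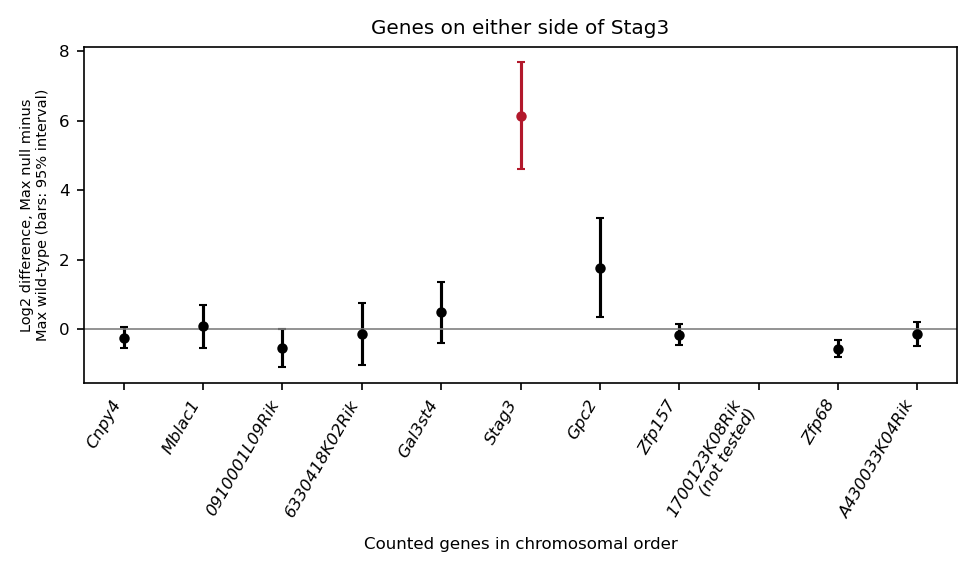
Fitted log2 differences, Max null minus Max wild-type, with 95% intervals, for Stag3 (red) and the 5 counted genes on either side of it in chromosomal order (black). Stag3 lies at 6.14, Gpc2 at 1.78 and the other tested neighbors between -0.55 and 0.49.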

How the data were processed

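The files hold raw counts, deposited by the authors as 1 whole number per gene symbol and tumor, and were made, per the submitters' processing notes, with bcl2fastq 1.8.4, TopHat2 2.0.12 and HTSeq 0.6.1 on mouse build mm9. Which annotation, strand setting and filters they used is not stated in any source used here. The HTSeq totals in each file (29.2% to 45.6% of reads) stayed out of all steps. Such counts leave out reads aligned to several places.

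Differences are from edgeR 4.0.16 (R 4.3.3), quasi-likelihood test, TMM factors, filterByExpr (14825 genes kept), Benjamini-Hochberg threshold 0.05, tested on simulated data. The SE is the difference divided by the square root of F. CPM uses TMM-scaled library sizes, and log2 CPM a prior count of 2. Exon lengths are unions from GENCODE M21 (GRCm38). Correlations used exact two-sided permutation of pairings. The smallest chi-square between libraries was 34.5 per gene, so each was counted as 1 sample. No label tells whether each tumor is from its own mouse, and a p-value here reflects only how much the 16 samples vary, which may be technical.

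The members and lists were chosen with earlier results of these data known. Genes named were all members, called list genes with the smallest p (up to 4) or else the 2 most abundant, the 5 most like Stag3, and its neighbors, and others are marked as chosen later. Alternatives were DESeq2 1.42.0, voom of limma 3.58.1 with quality weights, RLE or upper-quartile scaling, no or a stricter filter, the tumor number as a block, and leaving out tumors.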

Additional observations from a re-analysis of the deposited data

Results flagged for a closer look

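In 62 sets of values, each a gene in a group of tumors, the extreme tumor was compared with the others of its group on log2(CPM + 1). By Dixon's test at 95%, 10 stood out. Chance flags about 1 in 20 sets that are picked without regard to their values. The genes here were the members and other genes named above, some of them chosen after their values were seen. The 10 are therefore a description and are not read as an excess over chance. Among null tumors the highest value stood apart for Smc3 in tumor 5 (354 CPM), E2f6 in tumor 5 (118 CPM), Sycp3 in tumor 2 (7.07 CPM), Syce1 in tumor 9 (47.7 CPM), Slc25a31 in tumor 8 (19.7 CPM) and Tex101 in tumor 5 (10.6 CPM). The lowest value stood apart for Mga in null tumor 3 (163 CPM). Among wild-type tumors the highest value stood apart for Rec8 in tumor 6 (26.0 CPM), Tuba3a in tumor 1 (3.37 CPM) and Tex101 in tumor 7 (0.674 CPM, from 5 reads). Syce1, Slc25a31, Tex101 and Sycp3 each peaked in a different null tumor, and null tumor 2, where Sycp3 peaked, also had the highest Rec8 of all tumors (42.1 CPM).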

How the results depend on the processing

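The cause of each change below was not tested. The number of called genes, 2378, was 318 with the tumor number as a replicate block and 256 without wild-type tumors 2, 4 and 7, and 1471 to 3033 over the fits without 1 tumor, lowest without wild-type tumor 4, then 7 (1555). Same-numbered tumors correlated from -0.17 to 0.24, and 0 of 7 wild-type tumors correlated best with their own number. These values gave no sign that the numbers pair the samples, but a weak shared effect could be missed this way. Under the block Stag3 was 7.24 and Rad21l 4.91, and Pds5a, Pttg1, Ctcfl, Nsmce4a and Zfp68 were not called. Stag3 was higher in every fit run: 8.01 with voom, 5.94 to 7.45 without 1 tumor and 5.85 without wild-type tumors 2, 4 and 7. The other members moved by less than 1 SD between tumors. Pathway genes called lower (3) were 5 with upper-quartile factors, DESeq2 and the stricter filter, 0 under the block and 0 without wild-type tumors 2, 4 and 7 (9 and 1 at an unadjusted p under 0.05; DESeq2 ran on all tumors only), and 2 to 10 without 1 tumor, highest without null tumor 5, then wild-type tumor 3 (6). Those called higher (2) were 1 without the filter, with the stricter filter and under the block, 0 without wild-type tumors 2, 4 and 7 (1 unadjusted), and 1 to 3 without 1 tumor. Pds5a lost its call without the filter and under the block, whereas with the stricter filter Rad21l was removed and not tested. The Stag3 share of STAG reads in null tumors was 32.9% without division by length, against 43.7%. Without the 2 tumors farthest from the median, r turned to -0.15 (Stag3 and Smc1a), -0.043 (Stag3 and Stag2), -0.0062 (Smc1a and Smc3) and -0.16 (Smc3 and Rad21), and was 0.66 and no longer called for Smc1a and Stag1. Gpc2 was called with DESeq2 (1.79) and voom (2.97). At 8.66 to 15.1 M reads, levels under 1 CPM rest on about 15 reads or fewer.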
